A study of Rattus norvegicus with 19 samples.

Results

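The small-molecule methyltransferases examined here are 7 liver enzymes, Inmt, Nnmt, Tpmt, Hnmt, Pemt, Gamt and As3mt, taken as every probe set that the array annotation assigns to exactly 1 of these genes. That gave 8 probe sets for the 7 genes, of 20347 single-gene probe sets for 13810 genes on both array types together. The study measured gene expression in livers of adult Rattus norvegicus to ask whether pregnenolone-16α-carbonitrile (PCN), a synthetic steroid and ligand of the pregnane X receptor in rodents, acts on genes outside drug metabolism. Animals were fasted overnight, received a single intraperitoneal injection of PCN at 100 mg/kg or of corn oil, and were killed 8 h later. All groups share the fast, and the corn oil group is the vehicle control. Strain, sex and age beyond adult are not given in the sources used here. RNA of each animal was hybridized to Affymetrix arrays of a first type (5 PCN and 5 corn oil arrays) and a second type (5 PCN and 4 corn oil arrays). The labels call the animals of a group biological replicates.

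All 7 enzymes transfer the methyl group of S-adenosylmethionine to a small molecule, which leaves S-adenosylhomocysteine. The liver makes most of the body's S-adenosylmethionine and uses much of it to build creatine and phosphatidylcholine, while other methyltransferases inactivate amines, vitamins, drugs and metalloids. Inmt methylates indolamines such as tryptamine and also thioethers. Nnmt, an enzyme of the same structural family, methylates nicotinamide. Tpmt methylates thiopurine drugs, Hnmt histamine, and As3mt inorganic arsenic. Pemt turns phosphatidylethanolamine into phosphatidylcholine, and Gamt carries out the last step of creatine synthesis.

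The set was chosen by measured values, namely the PCN against corn oil difference of Inmt, and the other enzymes were added for their related chemistry. So the PCN against corn oil values of the 7 enzymes are given as a description and not as a test. Its promoter is shown because its difference is the largest of the set, and that of Gamt because its groups overlapped. Both are RefSeq sequences of the assembly GRCr8 and cover the 250 bases before the annotated start, 5′ to 3′ on the gene's strand. The Inmt window is chr4:85652756-85653005 on the minus strand and the Gamt window chr7:10099034-10099283 on the plus strand. Capitals mark the motif TATAAA.
Inmt: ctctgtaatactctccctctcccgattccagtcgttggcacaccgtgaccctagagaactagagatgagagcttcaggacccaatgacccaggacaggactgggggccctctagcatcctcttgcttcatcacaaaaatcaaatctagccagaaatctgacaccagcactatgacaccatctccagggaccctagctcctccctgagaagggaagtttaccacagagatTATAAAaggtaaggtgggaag
Gamt: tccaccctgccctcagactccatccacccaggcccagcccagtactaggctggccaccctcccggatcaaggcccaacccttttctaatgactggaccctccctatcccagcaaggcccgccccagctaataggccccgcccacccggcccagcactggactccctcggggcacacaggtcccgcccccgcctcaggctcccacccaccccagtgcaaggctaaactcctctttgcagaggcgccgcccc
The Inmt window held TATAAA from base -21 to base -16, counted from the annotated start, and was 50.4% G or C with 3 CpG dinucleotides. The Gamt window held no TATAAA and was 67.6% G or C with 9 CpG dinucleotides. Over 33469 promoters of the same length, 12.9% held TATAAA on either strand, and the median G or C content was 51.2%.

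The pregnane X receptor, paired with the retinoid X receptor, binds repeats of hexamers close to AGTTCA. Promoter windows of 5 of the 7 genes (Inmt, Gamt, Tpmt, Pemt and Hnmt) were searched on both strands for the hexamers AGTTCA and AGGTCA and for direct repeats of AGTTCA with 3 or 4 bases between them and an everted repeat of AGTTCA with 6 bases between. AGTTCA was in no window of the 5 and in 12.2% of all promoters. AGGTCA was in the Hnmt window alone, from base -189 to base -184, and in 14.1% of all promoters. The repeats contain AGTTCA and were in no window of the 5; in the order named they were found in 2, 4 and 0 of all 33469 promoters. These letters describe the windows only, and regulatory sites outside them were not searched.

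Values are the log2 expression deposited per probe set, so a difference of 1 is a doubling, and levels are compared only within a probe set. Differences are PCN minus corn oil with the standard error of a linear model fitted with limma to all probe sets of an array type whose mean passed the 30th percentile (6.67 on the first type and 5.51 on the second). A probe set counts as called at a Benjamini-Hochberg adjusted p below 0.05 over all probe sets tested on that array type. Hepatocyte markers (Alb, Apoa1, Ttr and others, 9 of 10 listed) all passed the filter, with a mean level of 13.05 to 13.67 on the corn oil arrays and 13.45 to 13.71 on the PCN arrays. The mean level of markers of macrophages, stellate cells, endothelial cells, cholangiocytes, lymphocytes, neutrophils, mast cells and red cells overlapped between the groups on each array type, and 0 of these markers were called. Every macrophage marker measured was nevertheless higher after PCN, with log2 fold changes of 0.019 to 0.477. Every red cell marker measured was lower, at -0.586 to -0.18. The other types had markers in both directions. A change in cell composition was not tested. In whole liver, fewer cells of a type and less RNA per cell cannot be told apart. The array of corn oil replicate 2 held the highest or lowest corn oil value for 58.7% of the probe sets tested on the first type, the largest share of its group, and Gsr, described below, read far lower there than on the other arrays. PCN replicate 2 held an extreme PCN value for 57.7%, and on the second type, which carries Nnmt, corn oil replicate 1 held one of its group for 57.8% and PCN replicate 5 for 55.5%.

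Drug metabolism genes listed as a check of the treatment were higher after PCN in these animals. Of 7 such genes tested, all on the first array type, 6 rose by limma. Over all probe sets tested on that type, 2.31% were called higher. The list was chosen with earlier results of these data known, so the count is a description. The other, Cyp3a2, was higher by 1.55 ± 0.42 (SE) on the log2 scale, above the threshold at an adjusted p of 0.0663. The heme synthesis enzyme Alas1 rose most of the 6 (1.74 ± 0.14 SE, adjusted p = 0.000119, limma), from 11.68 ± 0.31 in corn oil to 13.42 ± 0.18 after PCN (SD, n = 5 each). Cyp3a18 rose by 1.31 ± 0.19 and Por, the electron donor of P450 enzymes, by 1.27 ± 0.14 (SE). Cyp3a23-3a1, a main target of the receptor, had a log2 fold change of 0.65 ± 0.10, and its 5 PCN arrays read between 13.72 and 13.82. The drug exporter Abcb1a rose by 1.03 ± 0.16 and the organic anion carrier Slco1a4 by 0.84 ± 0.16.

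Inmt, the indolamine and thioether methyltransferase, read 7.25, 7.89, 7.76, 7.38 and 7.95 in corn oil replicates 1 to 5 on its only probe set, which is on the first array type. In PCN replicates 1 to 5 it read 10.29, 9.99, 9.56, 10.84 and 9.0. Every PCN animal was above every corn oil animal, and the nearest values of the groups were 1.05 apart. The mean was 7.65 ± 0.31 in corn oil and 9.93 ± 0.70 after PCN (SD, n = 5 each), a difference of 2.29 ± 0.29 (SE) with a 95% interval of 1.66 to 2.91, which is 3.16-fold to 7.52-fold. By size of the rise it was number 6 of the 11106 probe sets tested on the first type. Its mean level in corn oil alone was above the filter.

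PCN animals differed from each other in Inmt more than corn oil animals did. Relative to the corn oil mean the 5 PCN animals stood at 2.55-fold (replicate 5), 3.78-fold (replicate 3), 5.06-fold (replicate 2), 6.22-fold (replicate 1) and 9.11-fold (replicate 4). The range among PCN animals was 3.58-fold and among corn oil animals 1.62-fold. The SD in corn oil was 0.448 of that after PCN. A ratio at least as low was found for 9% of the 11106 probe sets tested on the first type. The spread within groups was large for this array type, since 97.3% of tested probe sets had a smaller pooled SD than the 0.54 of Inmt, against a median of 0.175 over all tested. Even the PCN animal with the least Inmt lay well clear of the corn oil range.

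**Figure D1:**
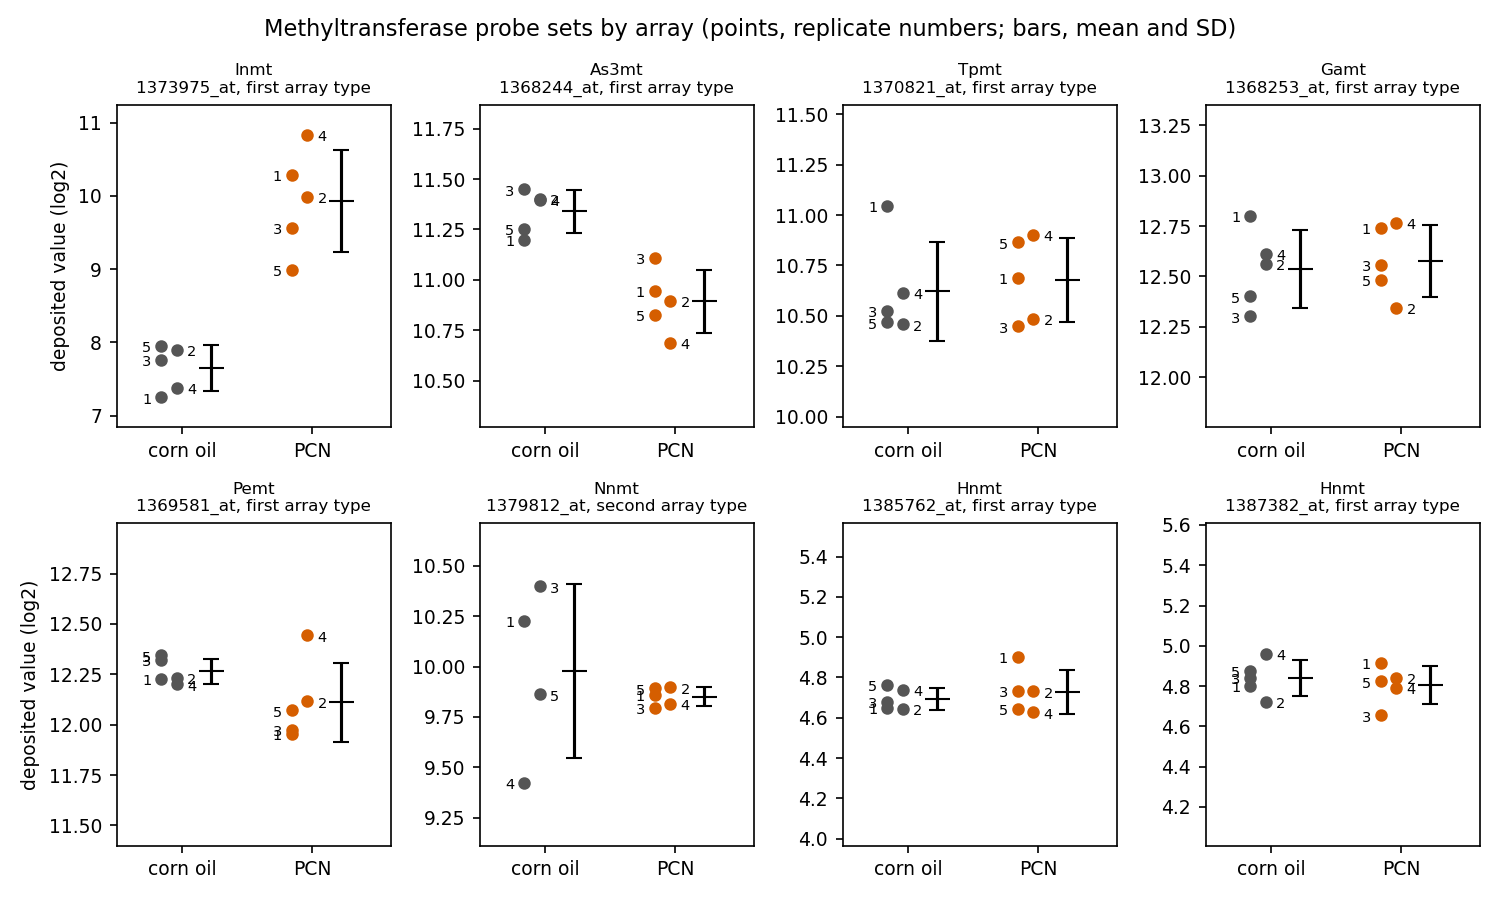
Deposited log2 values of the 8 probe sets of the 7 methyltransferases, with a panel for each probe set, corn oil in grey and PCN in orange, replicate numbers beside the points, and the group mean with its SD at the right of each group. The vertical scale spans the same range in every panel except that of Inmt, which spans more; the groups are apart for Inmt and As3mt and overlap for the other probe sets.

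The gene profiles nearest to that of Inmt over the 10 arrays were found by the root mean square difference between profiles, each taken relative to its own mean. The nearest 5 probe sets belonged to Gpd1l1 (0.49), Ces2c (0.54), Mdm2 (both at 0.54) and Alas1 (0.56, log2 units), against a median of 1.25 over all single-gene probe sets tested. By its name Gpd1l1 is related to a glycerol phosphate dehydrogenase, while Ces2c is a carboxylesterase and Mdm2 a ubiquitin ligase acting on p53. The measure favours genes with a similar difference between the groups, so it follows from the rise of Inmt and is a description. Among PCN animals Alas1 followed Inmt in order, at 13.59 in replicate 4, 13.52 in replicate 1, 13.49 in replicate 2, 13.35 in replicate 3 and 13.15 in replicate 5. The same order, replicates 4, 1, 2, 3 and 5 from high to low, was shared by 44 probe sets besides Inmt, Alas1 among them, or 0.396% of those tested. With 120 possible orders, such a share does not mark the order as rare. Gpd1l1, Ces2c and both Mdm2 probe sets had other orders. Of the other 5 genes of the treatment check that rose, 0 had the order of Inmt. Alas1 was picked for its nearness to Inmt on these same arrays, so a like order partly follows from that choice. This match in order was noticed after the values were seen.

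**Figure D2:**
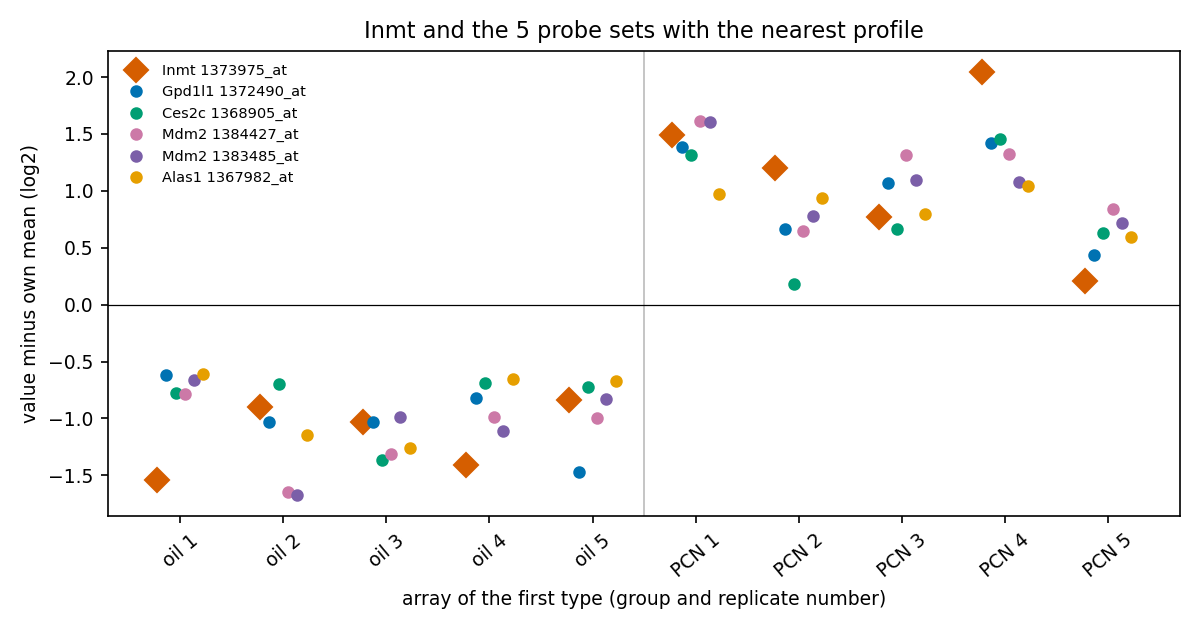
Values of Inmt (orange diamonds) and of the 5 probe sets nearest to it on the 10 arrays of the first type, each minus its own mean over the arrays in log2 units, with corn oil arrays left of the vertical line and PCN arrays right of it. Among PCN arrays Inmt spans 1.84, more than any of the other 5 probe sets plotted, with replicate 4 highest and replicate 5 lowest.

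As3mt, which methylates inorganic arsenic for excretion, was lower after PCN. It read 11.20, 11.40, 11.45, 11.40 and 11.25 in corn oil replicates 1 to 5 and 10.94, 10.89, 11.11, 10.69 and 10.83 in PCN replicates 1 to 5. The groups did not overlap, but their nearest values, corn oil replicate 1 and PCN replicate 3, were only 0.09 apart. The mean was 11.34 ± 0.11 in corn oil and 10.89 ± 0.16 after PCN (SD, n = 5 each), a difference of -0.45 ± 0.10 (SE) with a 95% interval of -0.66 to -0.24. In linear terms PCN animals had between 0.636 and 0.852 of the corn oil mean. As3mt varied little between animals of a group, with a pooled SD of 0.13 that was smaller than that of most probe sets tested.

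Inmt and As3mt were the members called, 2 of the 5 members' probe sets tested on the first array type, where 3.25% of all 11106 probe sets were called, 2.31% higher and 0.945% lower. They were also the only members whose groups did not overlap, which held for 6.04% of all probe sets tested there, 3.99% higher and 2.05% lower. Because the set was assembled with these results known, neither count is read as a property of the family. The call of As3mt was not stable. It was lost without corn oil replicate 3 or 4 or PCN replicate 1, 4 or 5. The differences were then -0.42, -0.43, -0.46, -0.40 and -0.43. The call was also lost when replicate number entered as a block (-0.45), and when the array sets described with Cth below were modelled (-0.395). In all of these the difference stayed about as large. The call of Inmt was kept in all 22 alternative analyses, with differences from 2.06 to 2.52. Each reused the difference for which the set was chosen, so this describes how it depends on the processing and is not further support.

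Tpmt, the thiopurine methyltransferase, read 11.05, 10.46, 10.52, 10.62 and 10.47 in corn oil replicates 1 to 5 and 10.69, 10.49, 10.45, 10.90 and 10.86 in PCN replicates 1 to 5. Corn oil replicate 1 was the highest of all 10 arrays and stood apart from the other corn oil values, so the groups overlapped over nearly their whole range. The difference was 0.06 ± 0.14 (SE) with an interval of -0.24 to 0.35, which leaves room for a change of up to 1.28-fold upwards. Without corn oil replicate 1 the difference was 0.16.

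The creatine enzyme Gamt and the phosphatidylcholine enzyme Pemt, which draw heavily on the liver's methyl groups, had groups that overlapped as well. Gamt read 12.80, 12.56, 12.30, 12.61 and 12.40 in corn oil and 12.74, 12.34, 12.56, 12.77 and 12.48 after PCN, in order of replicate number. Its difference was 0.04 ± 0.11 (SE), with an interval of -0.20 to 0.28, which is 0.873-fold to 1.21-fold. Pemt read 12.23, 12.23, 12.32, 12.20 and 12.34 in corn oil and 11.96, 12.12, 11.97, 12.44 and 12.07 after PCN. Of its PCN animals 4 were below all 5 corn oil animals, while PCN replicate 4 was above them all. The difference was -0.15 ± 0.09 (SE) with an interval of -0.36 to 0.05, and without PCN replicate 4 it was -0.24.

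Nnmt, which methylates nicotinamide and so takes it out of NAD synthesis, was measured on the second array type only. It read 10.23, 10.40, 9.42 and 9.86 in corn oil replicates 1, 3, 4 and 5. In PCN replicates 1 to 5 it read 9.86, 9.90, 9.79, 9.81 and 9.89. Corn oil replicates 1 and 3 lay above all PCN animals, replicate 4 lay below them all and replicate 5 lay among them. The means were 9.98 ± 0.43 (SD, n = 4) and 9.85 ± 0.05 (SD, n = 5), with a difference of -0.13 ± 0.16 (SE) and an interval of -0.48 to 0.23. Without corn oil replicate 4 it was -0.31 and without corn oil replicate 3 it was 0.01, while quantile normalization gave -0.38. On the second type 5.4% of 10693 probe sets were called, 3.76% higher and 1.64% lower, and the groups did not overlap for 10.4%, 5.06% higher and 5.32% lower, and Nnmt was in neither count.

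The spread of Nnmt between animals was 9.45 times as large in corn oil as after PCN in terms of the SD. Corn oil animals spanned 1.97-fold and PCN animals 1.07-fold. A ratio of SDs at least this high was found for 27 of the 10693 probe sets tested on the second type, or 0.253%, and the median ratio there was 0.878. On the first type the ratio was 0.322 for Pemt and 0.448 for Inmt, both more variable after PCN. Ratios at least as low were found for 3.2% and 9% of the probe sets tested there. For As3mt, Gamt and Tpmt the ratio was between 0.695 and 1.17. On the second type 51.5% of probe sets have exactly equal values on at least 2 arrays, against 0.435% on the first, which bears on every SD and share of calls there; the 9 values of Nnmt all differ. With 4 and 5 arrays a ratio of SDs is imprecise, and the spread of Nnmt was picked out after its values were seen.

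**Figure D3:**
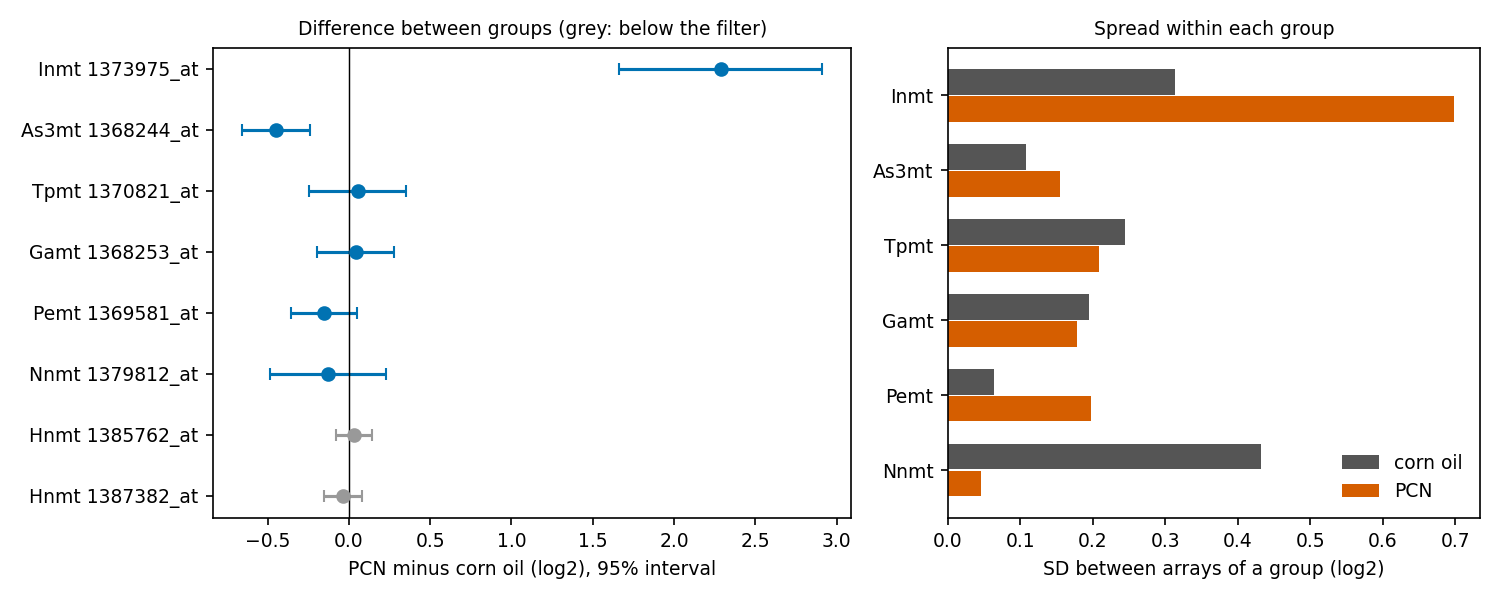
Left, difference between PCN and corn oil in log2 units with its 95% interval for the 8 probe sets, with Hnmt in grey because both of its probe sets fell below the filter. Right, SD between arrays of the same group in log2 units for the 6 tested probe sets. Inmt at 2.29 and As3mt at -0.45 lie away from 0 while the other intervals include 0, and the SD of Nnmt is 0.43 in corn oil and 0.05 after PCN.

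Hnmt, the enzyme that inactivates histamine inside cells, had the set's only pair of probe sets, and both lay near the bottom of the first array type. On the dimmer of them corn oil arrays read 4.64 to 4.76 and PCN arrays 4.63 to 4.90, and on the other they read 4.72 to 4.96 and 4.66 to 4.92. Only 0.983% and 1.65% of probe sets on the array type had a lower mean, and both were left out by the filter. Fitted without the filter, the differences were 0.03 ± 0.05 and -0.03 ± 0.05 (SE), of opposite sign. Values so low say little about Hnmt in these livers. Histamine-related mast cell markers were measured too: the proteases Tpsb2, Cpa3, Tpsab1 and Mcpt1 passed the filter with log2 fold changes between -0.11 and -0.03. Hdc, the decarboxylase that makes histamine, had 0.75 ± 0.29 (SE, adjusted p = 0.208, limma), and 3 of the 8 mast cell markers (Kit, Ms4a2 and Cma1) were below the filter.

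The same animals recurred at the extremes of the members. PCN replicate 4 had the highest PCN value of Inmt, Gamt, Pemt and Tpmt and the lowest of As3mt. Corn oil replicate 1 had the highest corn oil value of Gamt and Tpmt and the lowest of Inmt and As3mt. Over all tested probe sets of the first type, PCN replicate 4 held the highest or lowest PCN value for 51.8% and corn oil replicate 1 the highest or lowest corn oil value for 39.7%. The members share these 10 arrays, so their extremes are not independent of each other.

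Genes around the 7 enzymes were examined in 8 lists, from methyl donor supply to the handling of each substrate. Of 106 genes tested, each represented by its brightest tested probe set, 2 rose and 5 fell, together 6.6%, with a median log2 fold change of -0.02. Over all probe sets tested, 3.25% were called on the first array type, with a median of 0.00, and 5.4% on the second, which supplied 12 of these genes, with a median of -0.03. An unadjusted p below 0.05 was reached by 32 of the 106 genes, against 17.7% and 27.3% of all probe sets tested on the first and second type. The 7 called genes were spread over 5 lists. The balance towards lower values was not stable, with 9 higher and 7 lower with array weights and 5 of each without PCN replicate 5.

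Methyl donor supply had 1 of 19 genes called. Cth, which splits cystathionine to release cysteine downstream of the methylation cycle, fell from 12.48 ± 0.11 to 11.34 ± 0.55 (SD, n = 5 each), a log2 fold change of -1.14 ± 0.21 (SE, adjusted p = 0.0147, limma). PCN replicate 4 was lowest, at 10.64, and replicate 2 highest, at 11.94, still below all corn oil arrays. The genes that make and recycle S-adenosylmethionine were not called in the main analysis. Mat1a, which makes S-adenosylmethionine in adult liver, had -0.33 and lay just above the threshold (adjusted p = 0.0503, limma). Ahcy, which clears S-adenosylhomocysteine, had -0.22 (adjusted p = 0.28, limma). The median of the list was -0.02. An unadjusted p below 0.05 (limma) was reached by 7 of the 19 genes. Over all probe sets tested the share was 17.7% on the first type and 27.3% on the second. Of the 7 genes, Mthfd1 (0.32, without overlap of its groups), Shmt2 (0.41) and Mtrr (0.24) were higher, and Cth, Mat1a, Ahcy and Gnmt lower. A term was also fitted that sets corn oil replicate 1 and PCN replicates 1, 3, 4 and 5 apart from the other arrays. That split was found in an earlier analysis of these values. With it the call of Cth was lost (-0.88, adjusted p = 0.122, limma). The set holds most PCN arrays but only corn oil replicate 1 of its group, so the term overlaps with treatment. For calls lost or gained with it, array set and treatment cannot be fully told apart.

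Among 7 other small-molecule methyltransferases 1 fell and 0 rose by limma, with 2 at an unadjusted p below 0.05. Mettl7b, a thiol methyltransferase of the endoplasmic reticulum, read 11.33, 11.47, 10.92, 11.40 and 11.44 in corn oil and 10.43, 10.18, 10.70, 10.83 and 10.67 after PCN, by replicate number. All PCN animals were below all corn oil animals, with corn oil replicate 3 closest to them. The log2 fold change was -0.75 ± 0.14 (SE, adjusted p = 0.0159, limma), and without corn oil replicate 4 it was -0.73 with an adjusted p of 0.0509. Gnmt, the glycine methyltransferase that disposes of surplus methyl groups, had -0.34 (adjusted p = 0.192), and Mettl7a, a relative of Mettl7b by name, -0.17. Coq3 and Coq5, methyltransferases of coenzyme Q synthesis, had 0.02 and -0.01.

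Around Nnmt, 1 of 17 genes of nicotinamide and NAD metabolism was called. Kynu, a kynureninase on the route from tryptophan to NAD, had a log2 fold change of -1.03 ± 0.24 (SE, adjusted p = 0.0436, limma) but its groups overlapped, since corn oil replicate 1 at 10.85 was below PCN replicate 2 at 10.96. Its call was lost without any single array except corn oil replicate 1 or PCN replicate 2 (adjusted p from 0.059 to 0.111), with log2 fold changes of -0.87 to -1.10 that stayed close to the full value. It was also lost with no filter (adjusted p = 0.0515) and a robust variance prior (0.0503), both at -1.03, and with the term for 2 sets of arrays (-0.60, adjusted p = 0.304). Nampt, which returns nicotinamide to NAD, had -0.09, and Aox1, an aldehyde oxidase that acts on methylnicotinamide, -0.08.

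Around Pemt, 1 of 19 phosphatidylcholine genes was called. Pctp, the phosphatidylcholine transfer protein, read 9.50 to 10.19 in corn oil and 8.36 to 8.84 after PCN and fell by 1.2 ± 0.16 on the log2 scale (SE, adjusted p = 0.00231, limma). The groups lay well apart, and the call was kept in all 22 alternatives. Chka, a choline kinase that opens the route parallel to Pemt, had -0.89 (adjusted p = 0.174), and Pcyt1a, the rate-limiting enzyme of that route, 0.17. The list median was 0.00.

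Around As3mt, 2 of 17 genes rose and 1 fell. Aqp9, a channel for glycerol that also carries arsenite, fell from 11.88 ± 0.16 to 11.16 ± 0.21 (SD, n = 5 each), by 0.73 ± 0.12 on the log2 scale (SE, adjusted p = 0.00602, limma). Abcc2, which exports conjugates into bile, rose from 11.97 ± 0.25 to 12.70 ± 0.17 (0.73 ± 0.12, adjusted p = 0.00873). For both the groups did not overlap and the call was kept in all 22 alternatives. Gsr, glutathione reductase, rose by 1.38 ± 0.30 (adjusted p = 0.0287), but corn oil replicate 2 read 7.33 where the other corn oil arrays read 8.75 to 9.06. Without that array its log2 fold change was 1.07 ± 0.16 (SE), and the call was kept (adjusted p = 0.00588, limma). It was also kept there with the term for 2 sets of arrays (1.04, adjusted p = 0.0188). With corn oil replicate 2 included, the call was lost without corn oil replicate 3 or 5 or PCN replicate 1, 3 or 4 (adjusted p = 0.0547, 0.0531, 0.0746, 0.0527 and 0.0766). With that array included it was also lost with the term for 2 sets of arrays (0.173). The log2 fold change stayed between 1.23 and 1.45 in these.

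The other 3 lists had 0 genes called by limma, with 1 of 5, 3 of 12 and 3 of 13 at an unadjusted p below 0.05. In the creatine list around Gamt, the carrier Slc6a8 had -0.22 (adjusted p = 0.176) and the kinase Ckmt1 -0.16 (adjusted p = 0.317), the smallest p values of that list, and Gatm, which makes the substrate of Gamt, had 0.19. In the amine and histamine list, Ddc, the decarboxylase that makes tryptamine and other amines, had -0.81 ± 0.27 (SE, adjusted p = 0.135), and the aldehyde dehydrogenase Aldh2 had -0.26. Ddc read 10.56, 10.08, 9.98, 9.92 and 9.43 in corn oil and 9.40, 8.29, 8.88, 9.71 and 9.63 after PCN, by replicate number, so the groups overlapped. With the term for 2 sets of arrays its log2 fold change was -1.36 (adjusted p = 0.0156). Maoa and Maob, which oxidize amines, had -0.18 and 0.19. In the thiol, selenium and thiopurine list, Hprt1, which activates thiopurines, had 0.32 (adjusted p = 0.12) without overlap of its groups and was called with array weights (0.35, adjusted p = 0.0382). Mpst, a sulfurtransferase, had -0.38 (adjusted p = 0.101) and was called after quantile normalization (-0.46, adjusted p = 0.0256) and with arrays scaled to a trimmed mean (-0.42, adjusted p = 0.0423).

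**Figure D4:**
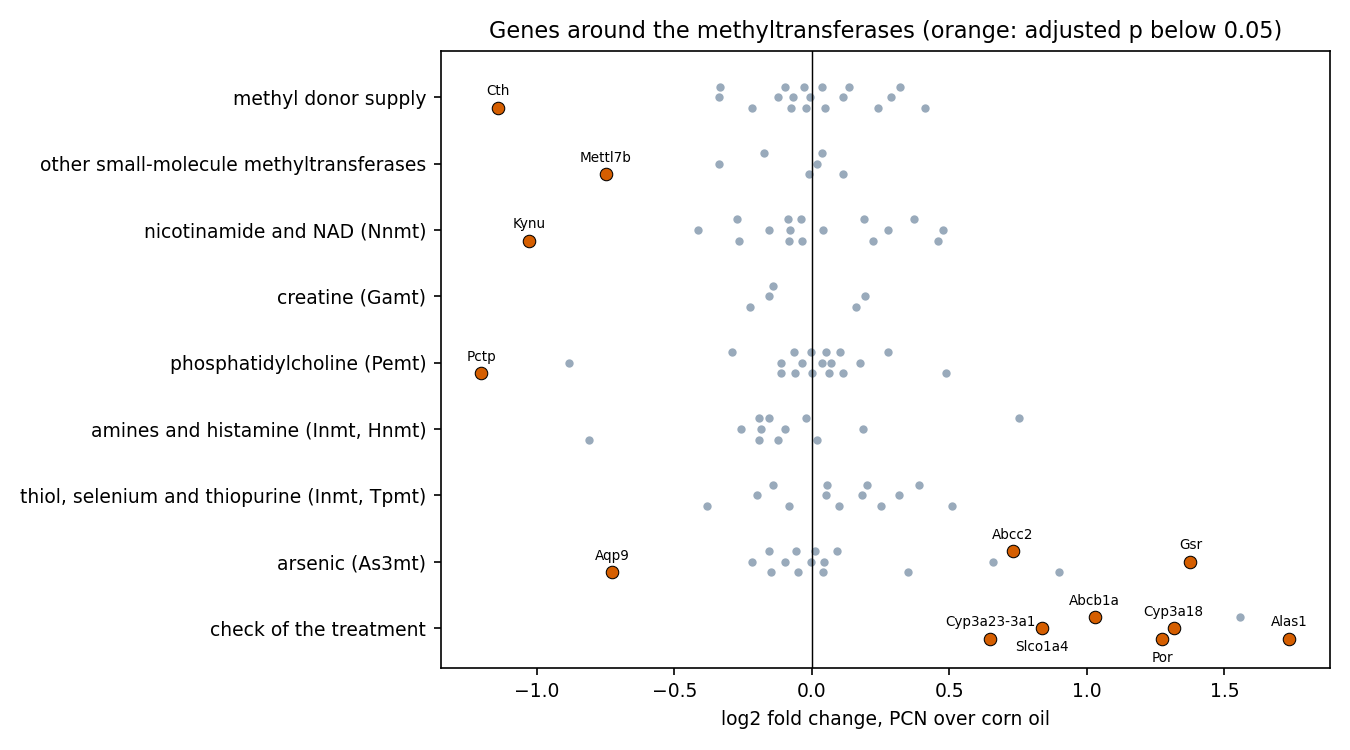
Log2 fold change, PCN over corn oil, of each tested gene in the 8 lists around the methyltransferases and in the list that checks the treatment, with a point for each gene and called genes named in orange. Outside the treatment check, 5 called genes lie left of 0 (Pctp, Cth, Kynu, Mettl7b and Aqp9) and 2 right of it (Abcc2 and Gsr).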

How the data were processed

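Log2 expression values were deposited by the authors per probe set, with MAS5 named, without a version, in the submitters' processing notes. Summarization, background correction and normalization are not given in the sources used here, and base 2 was inferred from the range of the values, 4.31 to 15.2 on the first array type and 3.1 to 14.1 on the second. RNA was extracted on columns with DNase and labelled with biotin, per the labels' protocols. The 57 control probe sets of each type were left out, as were those below the 30th percentile, which left 11106 and 10693. Symbols were updated by gene identifier to the RefSeq annotation of GRCr8 (12754 of 12789 and 7530 of 7570 single-gene probe sets matched). PCN was compared with corn oil in each table alone with limma 3.58.1 in R 4.3.3 (treatment alone, moderated variances with an intensity trend, two-sided). The fit was tested on simulated data. Arrays have no depth, and their number limits precision.

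Members and lists were chosen with earlier results of these data known. Named were all member probe sets, the 5 probe sets nearest to Inmt, and from each list up to 4 called genes of largest change, or the 2 of smallest p where none was called. Other list genes named were chosen after their values were seen, for their role or, with Mthfd1, Shmt2 and Mtrr, for an unadjusted p below 0.05. Alternatives were other filters, scalings, variance priors, array weights, a pseudocount of 16, the replicate block, a term for 2 sets of arrays and leaving out each animal. Chosen after seeing the data was that term without corn oil replicate 2.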

Additional observations from a re-analysis of the deposited data

Results flagged for a closer look

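The check covered 50 groups of 4 or 5 arrays, from the member probe sets and the list genes named by the rule above. Of these, 5 held a value whose gap to its neighbour was large for the range of the group. Chance alone trips this check in about 1 of 20 groups. Other genes named in the text, such as Cyp3a23-3a1 and Slco1a4, were not checked. Cyp3a23-3a1 in PCN replicate 4 read 13.717 against 13.805 to 13.824 on the other PCN arrays. Tpmt in corn oil replicate 1 read 11.05 against 10.46 to 10.62 in the other corn oil arrays. Mettl7b in corn oil replicate 3 read 10.92 against 11.33 to 11.47, and Gsr in corn oil replicate 2 read 7.33 against 8.75 to 9.06. After PCN, Por in replicate 5 read 12.35 against 12.71 to 12.81, and Abcb1a in replicate 2 read 9.89 against 9.29 to 9.44.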

How the results depend on the processing

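The difference of Inmt was 2.06 to 2.52 when single animals were left out and 2.2 to 2.49 in the other alternatives, with the call kept in all 22. That of As3mt kept its sign in all 22 and its call in 14. Gamt and Tpmt turned to -0.15 and -0.175 with the term for 2 sets of arrays, and Tpmt to -0.19 when corn oil replicate 2 was left out as well. Counts of all probe sets called moved more. On the first type the 361 (256 higher, 105 lower) became 154 (without corn oil replicate 4) to 447 without single animals, 239 with the replicate block, 1051 with array weights and 165 (86 higher, 79 lower) with the term for 2 sets, or 310 (149 higher, 161 lower) without corn oil replicate 2 as well. On the second type the 577 (402 higher, 175 lower) became 84 (without corn oil replicate 4) to 1479 (without PCN replicate 5) without single animals, 875 (397 higher, 478 lower) with arrays scaled to a trimmed mean, 203 with the replicate block and 1475 with array weights; scaling to a common median gave 518 higher and 72 lower. The cause was not tested, and the term for 2 sets overlaps with treatment. On the first type the trimmed mean gave 256 higher and 176 lower, and quantile normalization 247 and 181. The list genes called, 7, became 5 to 10 without single animals and 16 (9 higher, 7 lower) with array weights. The labels do not say whether replicate numbers pair the animals. Same-numbered arrays of the first type had deviations correlating between -0.30 and 0.28 and of the second between 0.02 and 0.20, which cannot decide it. With the replicate block the difference of Inmt was 2.29 and As3mt was not called. Taking the brightest probe set of a gene changes only Hnmt, which had no tested probe set.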
